A study of Mus musculus with 7 samples.

Results

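The Hoxb cluster is 1 of the 4 Hox clusters of the mouse. Its 10 protein-coding genes (Hoxb1 to Hoxb9 and Hoxb13) were taken by symbol from a table of 22552 gene symbols and followed through 7 RNA-seq libraries of skin. All 10 were in the table. Cells had been purified by flow sorting from mice at postnatal day 50, of a strain labelled CD1/C3H, and their total RNA was sequenced. The groups were WT dorsal epidermis, WT dorsal dermis, WT ear epidermis, WT ear dermis and WT tail dermis, and ear epidermis and ear dermis of Wt/Koa heterozygotes, called Koa here. Koa is a mouse mutant with excess hair on the ears. Each group was 1 library, so no difference between groups has a replicate check and no p-value is given. The labels name neither the sex of the mice nor how many were pooled, and the tail library is placed by its title alone. The series also covers histone marks, CTCF binding and chromatin contacts of the Hoxc locus, which were not used here.

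Hox proteins are homeodomain transcription factors, and the order of their genes along a cluster follows the order in which they are expressed from head to tail in the embryo. Genes at the 3′ end (Hoxb1) are used furthest forward and genes at the 5′ end (Hoxb13) furthest back. Adult skin cells, fibroblasts above all, are known to keep a Hox code that records the body position they came from. Skin of the back, the ear and the tail are 3 positions along that axis.

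On GRCm38 with GENCODE M21 annotation, the 10 genes lie on the plus strand of chromosome 11 between bases 96194316 and 96368256. Hoxb13 is at the low-coordinate end (96194316 to 96197447) and is separated from Hoxb9 (96271457 to 96276595) by 74009 bases. That gap holds the long RNA gene Gm53 (96251105 to 96264868) and the microRNA gene Mir196a-1 (96265164 to 96265265). From Hoxb9 the order runs through Hoxb8 (96281905 to 96285315), Hoxb7 (96286623 to 96290162), Hoxb6 (96292476 to 96301569) and Hoxb5 (96303336 to 96306121). Mir10a (96317165 to 96317274) lies between Hoxb5 and Hoxb4 (96318267 to 96321638). Hoxb3 (96323326 to 96347930), Hoxb2 (96350525 to 96354012) and Hoxb1 (96365752 to 96368256) complete the cluster. Antisense genes are annotated across parts of it: Hoxb5os overlaps Hoxb5 and Hoxb6, Gm11536 lies within the span of Hoxb3, and Hoxb3os overlaps Hoxb3 and Hoxb2. Use of strand in the counting is not given in the sources used here, so reads of these genes and of their antisense partners cannot be told apart.

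The cluster also encodes microRNAs, and miR-196a is a known repressor of Hoxb8. The mature sequences and the paired stretch of Hoxb8 are shown because they are the most direct sequence link between a non-coding and a coding gene of the cluster. The mature sequences are from RefSeq (GRCm38.p6), with the seed, bases 2 to 8, in capitals. The Hoxb8 stretch is from the GRCm38 transcript at chr11:96284888-96284909, plus strand, in the 3′ UTR 421 bases after the end of the coding sequence, with letters that pair with miR-196a-5p in capitals.
mmu-miR-196a-5p: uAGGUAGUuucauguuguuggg
mmu-miR-10a-5p: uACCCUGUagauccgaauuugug
Hoxb8 site: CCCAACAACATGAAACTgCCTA
Of the 22 letters of the Hoxb8 site, 21 pair with the microRNA and the remaining letter forms a G:U pair. The best stretch in each of the other 9 Hoxb transcripts pairs at 12 to 14 letters. The 2 microRNAs have different seeds.

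Promoters of 3 of the 10 genes (Hoxb1, Hoxb4 and Hoxb8) were in the RefSeq promoter table. Those of Hoxb1 and Hoxb8 are shown. Hoxb4, whose level also differed across the skin regions, is not shown, and its window held none of the 3 motifs marked. The printed stretch is the 250 bases before the RefSeq start, on the plus strand (GRCm38.p6). For Hoxb1 that start lies a few bases inside the GENCODE gene given above, so the end of the stretch overlaps it. Capitals mark matches on either strand to 3 motifs: TGATNNAT (the paired site of Pbx and Hox proteins), CCAAT and TATAAA. No 2 marked matches overlap.
Hoxb8 promoter, chr11:96281655-96281904: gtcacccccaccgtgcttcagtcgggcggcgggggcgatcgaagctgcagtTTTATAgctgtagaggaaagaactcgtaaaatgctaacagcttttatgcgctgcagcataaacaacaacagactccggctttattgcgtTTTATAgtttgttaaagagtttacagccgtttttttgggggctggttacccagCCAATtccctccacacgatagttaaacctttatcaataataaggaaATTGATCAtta
Hoxb1 promoter, chr11:96365508-96365757: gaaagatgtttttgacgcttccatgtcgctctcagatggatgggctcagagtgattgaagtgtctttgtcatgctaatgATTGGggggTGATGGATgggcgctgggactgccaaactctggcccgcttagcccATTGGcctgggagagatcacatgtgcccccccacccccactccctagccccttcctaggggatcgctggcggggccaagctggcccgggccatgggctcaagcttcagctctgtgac
Motifs were searched from 250 bases before to 50 bases after the RefSeq start, and all matches lay before it. TGATNNAT began 162 bases before the RefSeq start of Hoxb1 and 11 bases before that of Hoxb8. TATAAA was found at 2 places upstream of Hoxb8, on the minus strand, and CCAAT at 2 places upstream of Hoxb1 and 1 upstream of Hoxb8. In all 32851 promoters of the table, over the same 300-base window, 8.85% held TGATNNAT, 37.4% CCAAT and 13.6% TATAAA. The Hoxb4 window held none of the 3 motifs. The direct repeat of the retinoic acid response element, spaced by 5 or by 2 bases, was found in none of the 3 promoters and in 0.00913% of the table for each spacing. A match is a description of the letters and not a site of binding.

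Levels are given as FPKM, the fragments counted for a gene per length of its transcript and per depth of the library. The steps between low values gave the depth of 6 libraries as 31700000 to 40500000 fragments. The depth of the tail library could not be found this way, because its column was rounded to 2 decimals. The tail column also lists 222 symbols at 0 that were at 10 FPKM or more in each of the other 6 libraries, so a 0 there is read with care. No Hoxb gene was at 0 in the tail. In bulk samples such as these, fewer cells of a type and less RNA per cell cannot be told apart.

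The labelled layers were checked against marker genes. The summed FPKM of 10 fibroblast markers was 6246 to 11402 in the 4 dermal libraries and 71.2 to 126 in the 3 epidermal ones. The 8 basal keratinocyte markers were not absent from the dermal libraries. Their median level in WT dorsal dermis was 40.7% of that in WT dorsal epidermis (range 26.5% to 75.8%). The same share was 8.0% in WT ear dermis, 11.6% in Koa ear dermis and, set against WT dorsal epidermis, 0.971% in WT tail dermis. A list of 10 stress genes such as Fos, Jun and Hspa1a, which respond within minutes to tissue handling, also divided the libraries. Its summed FPKM was 10074 in WT dorsal epidermis, 5294 in WT dorsal dermis and 9248 in WT tail dermis, against 489 to 949 in the 4 ear libraries. Stress gene levels moved with the body site, and their part in the site differences of Hoxb genes was not tested.

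**Figure D1:**
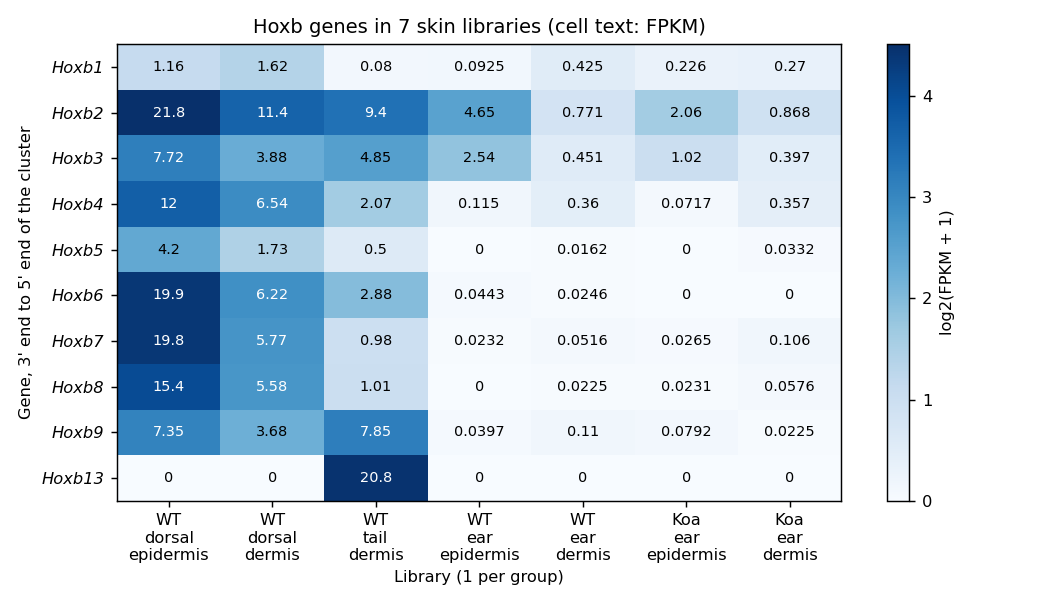
Level of each Hoxb gene (rows, in order along the cluster from Hoxb1) in each of the 7 libraries (columns, 1 per group). Colour is log2(FPKM + 1) and the text in each cell is FPKM. The dorsal and tail columns are shaded along most of the cluster, and in the ear epidermal columns the shading is strongest at Hoxb2 (4.65 and 2.06 FPKM) and Hoxb3 (2.54 and 1.02).

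Hoxb RNA was found along most of the cluster on the back and in the tail, where Hoxb13 was highest, and was low in the ear, where Hoxb2 and Hoxb3 led. The summed FPKM of the 10 genes was 109 in WT dorsal epidermis, 46.4 in WT dorsal dermis and 50.5 in WT tail dermis. It was 7.51 in WT ear epidermis, 2.23 in WT ear dermis, 3.50 in Koa ear epidermis and 2.11 in Koa ear dermis. In both dorsal libraries 9 of the 10 genes reached 1 FPKM, and in the tail 7 did. In each ear epidermal library 2 genes did, Hoxb2 and Hoxb3, and in the ear dermal libraries none did.

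At the 3′ end, Hoxb1, which sets the identity of a hindbrain segment in the embryo, had its highest level in WT dorsal dermis. It was at 1.16 FPKM in WT dorsal epidermis, 1.62 in WT dorsal dermis, 0.08 in WT tail dermis, 0.0925 in WT ear epidermis, 0.425 in WT ear dermis, 0.226 in Koa ear epidermis and 0.270 in Koa ear dermis. The 2 dorsal libraries were the highest. The tail and WT ear epidermis, which had 7 estimated fragments, were the lowest and lay close together, so Hoxb1 was the only Hoxb gene with no higher level in the tail than in the ear.

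Hoxb2 and Hoxb3, which pattern the hindbrain and the pharyngeal arches, were present in every library. Hoxb2 was at 21.8 FPKM in WT dorsal epidermis, 11.4 in WT dorsal dermis, 9.40 in WT tail dermis, 4.65 in WT ear epidermis, 0.771 in WT ear dermis, 2.06 in Koa ear epidermis and 0.868 in Koa ear dermis. Hoxb3 was at 7.72, 3.88, 4.85, 2.54, 0.451, 1.02 and 0.397 FPKM in the same order of libraries. Both were high on the back and in the tail, lower in ear epidermis and lowest in ear dermis.

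Hoxb4, known for its effect on the self-renewal of blood stem cells, was the first of a run of genes, up to Hoxb13, that were low in every ear library. It was at 12.0 FPKM in WT dorsal epidermis, 6.54 in WT dorsal dermis, 2.07 in WT tail dermis, 0.115 in WT ear epidermis, 0.360 in WT ear dermis, 0.0717 in Koa ear epidermis and 0.357 in Koa ear dermis. Unlike Hoxb2 and Hoxb3, it was higher in ear dermis than in ear epidermis.

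The middle genes Hoxb5, Hoxb6, Hoxb7 and Hoxb8 pattern the trunk, and were high on the back and close to nothing in the ear. Hoxb5 was at 4.20 FPKM in WT dorsal epidermis, 1.73 in WT dorsal dermis and 0.50 in WT tail dermis, and at 0.0332 or less in the ear libraries. Hoxb6 was at 19.9, 6.22 and 2.88 FPKM in the same 3 libraries, and at 0.0443 or less in the ear. These 2 genes were listed at 0 in 2 ear libraries each. Hoxb7 was at 19.8 FPKM in WT dorsal epidermis, 5.77 in WT dorsal dermis and 0.98 in WT tail dermis, with 0.0232 to 0.106 in the ear. Hoxb8, whose loss in mice causes excessive grooming, was at 15.4, 5.58 and 1.01 FPKM in these 3 libraries, with 0 to 0.0576 in the ear. In each of the 4 genes the order was dorsal epidermis, dorsal dermis, tail dermis and then the ear, with no ear library above 5 estimated fragments.

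The 5′ genes had another order. Hoxb9, which patterns the rib cage, was at 7.35 FPKM in WT dorsal epidermis, 3.68 in WT dorsal dermis, 7.85 in WT tail dermis, 0.0397 in WT ear epidermis, 0.110 in WT ear dermis, 0.0792 in Koa ear epidermis and 0.0225 in Koa ear dermis. Hoxb13, which limits growth of the tail in mice and is used in the adult prostate, was at 20.83 FPKM in WT tail dermis and listed at 0 in the other 6 libraries. Against the 3-fragment floor of each of those libraries, the tail level was at least 439-fold to at least 561-fold higher.

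**Figure D2:**
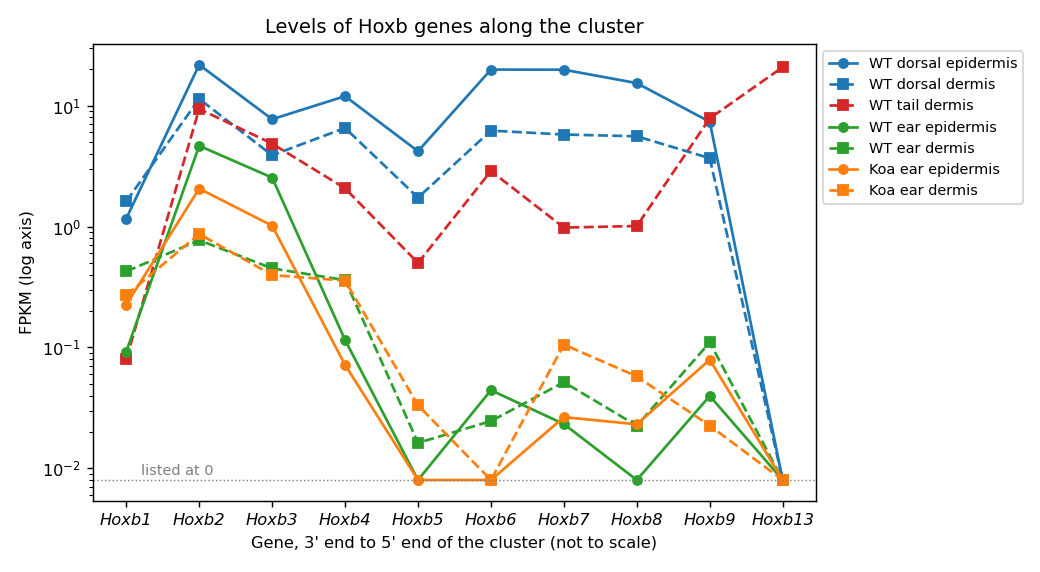
FPKM on a log axis (vertical) of each Hoxb gene in order along the cluster (horizontal, not to scale), with 1 line per library and values of 0 drawn on the dotted line. The dorsal lines stay above 1 FPKM from Hoxb1 to Hoxb9 and drop to 0 at Hoxb13, the tail line climbs to 20.83 FPKM at Hoxb13, and the ear lines fall away after Hoxb3 or Hoxb4.

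The makeup of the Hoxb RNA showed the same division. Hoxb4 to Hoxb8 made up 65.2% of the summed Hoxb FPKM in WT dorsal epidermis, 55.7% in WT dorsal dermis and 14.7% in WT tail dermis. Hoxb9 and Hoxb13 made up 6.73%, 7.92% and 56.8% in the same libraries. Hoxb2 and Hoxb3 held 95.8% of it in WT ear epidermis, 87.8% in Koa ear epidermis, 54.7% in WT ear dermis and 59.9% in Koa ear dermis.

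The comparison of back with ear asks how the Hox code of haired dorsal skin differs from that of the ear. A gene counted as higher or lower when its log2(FPKM + 1) values differed by 1 or more, among genes reaching 1 FPKM in 1 of the 2 libraries. Differences on this scale understate the change of low genes. In dermis, 8 of the 9 Hoxb genes that could be counted were higher on the back (Hoxb2 to Hoxb9) and none was lower, where 11.7% of all genes tested were higher. The median difference of the 9 was 2.47, against -0.05 over all genes tested. The dorsal to ear ratio was 14.8 for Hoxb2 (exact 95% counting interval 10.6 to 20.8), 8.62 for Hoxb3 (6.37 to 11.8) and 18.1 for Hoxb4 (12.6 to 26.9). For Hoxb9 the ratio was 33.4 (18.3 to 77.8), and for Hoxb1, which missed the size rule, 3.80 (2.49 to 5.98). Hoxb8 had 437 estimated fragments on the back and 2 in the ear, a ratio of 248 with an interval of 67.8 to 2040. These intervals cover counting error only. Markers of other cells moved with this comparison, in which 1005 of the 14235 genes tested were lower on the back. Of 8 cartilage markers that could be counted, 7 were lower on the back, with summed FPKM of 37 there and 946 in the ear. Of the growing hair follicle markers, 11 of 12 were higher on the back (49.3 and 6.12 FPKM in sum). Their part in the Hoxb values was not tested. Of the basal keratinocyte markers 7 of 8 were higher on the back, and of the suprabasal ones 6 of 6.

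The dorsal dermal count changed with the treatment of the keratinocyte RNA in that library. When the median keratinocyte share (40.7% of the dorsal epidermal level) was taken off each dermal value, 1 of the 8 genes, Hoxb2, stayed past the size rule. Its difference was then 1.32. The share taken off WT ear dermis was smaller, at 8.0% of the ear epidermal level. Over all genes, the split moved from 1670 higher and 1005 lower of 14235 to 623 higher and 4864 lower of 13406. The fall in the Hoxb count thus came with a shift of the whole column. Hoxb6, Hoxb7 and Hoxb8 were left at nothing in dorsal dermis, with differences of -0.03, -0.07 and -0.03. With the share computed without Dst, the marker with the highest dermal to epidermal ratio, Hoxb4 also stayed (1.11). Hoxb RNA of dermal cells and of keratinocytes cannot be told apart in this single library.

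In epidermis, 8 of 9 Hoxb genes were again higher on the back (Hoxb2 to Hoxb9) and none was lower, where 11.5% of all genes tested were higher. The median difference was 3.01, against -0.02 over all genes tested. The ratio was 4.68 for Hoxb2 (4.09 to 5.39) and 3.04 for Hoxb3 (2.66 to 3.49), and 104 for Hoxb4 (57.8 to 209). Hoxb9 had a ratio of 185 (68.3 to 648). Hoxb5 and Hoxb8 had no fragment in WT ear epidermis, and against 3 fragments were at least 95.5-fold and at least 503-fold higher on the back. Hoxb2 and Hoxb3, the Hoxb genes that reached 1 FPKM in WT ear epidermis, had lower ratios than the other 7. A higher ear level lowers this ratio by construction. Hoxb1, below the size rule, had a ratio of 12.6 (5.80 to 32.5) on 69 and 7 estimated fragments. With all libraries set to the same total FPKM, Hoxb3 fell below the size rule at 0.87.

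Set against ear dermis, the tail had higher levels of 6 of the 7 Hoxb genes that could be counted (Hoxb2, Hoxb3, Hoxb4, Hoxb6, Hoxb9 and Hoxb13), and none was lower. Of all genes tested, 6.34% were higher. The median difference of the 7 was 2.01, while the median over all genes was -0.51, so the column as a whole lay lower. The tail to ear ratio was 12.2 for Hoxb2, 10.8 for Hoxb3, 5.74 for Hoxb4 and 71.3 for Hoxb9, and no counting interval can be given for the tail. This count stayed at 6 after the keratinocyte share was taken off.

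Between tail and back all 10 Hoxb genes could be counted, and they did not move together. Hoxb13 was higher in the tail, where 7.07% of all genes tested were higher. Hoxb1, Hoxb4, Hoxb7 and Hoxb8 were lower, where 29% of all genes were lower, and the median over all genes was -0.48. The tail to dorsal ratio was 0.0495 for Hoxb1, 0.826 for Hoxb2, 1.25 for Hoxb3, 0.317 for Hoxb4 and 0.288 for Hoxb5. It was 0.463 for Hoxb6, 0.170 for Hoxb7, 0.181 for Hoxb8 and 2.14 for Hoxb9. The lowest ratios were thus at Hoxb1 and at Hoxb7 and Hoxb8, and the ratio passed 1 at Hoxb3 and from Hoxb9 onward. After the keratinocyte share was taken off, 1 Hoxb gene was lower in the tail and 5 were higher (Hoxb2, Hoxb3, Hoxb6, Hoxb9 and Hoxb13), so the direction of the count turned. The step took 40.7% of the dorsal epidermal level off dorsal dermis and 0.971% of it off the tail. The split over all genes after this step is not given here, so the turn cannot be read as particular to Hoxb genes. Hoxb1 remained lower (-1.0), whereas the differences of Hoxb4, Hoxb7 and Hoxb8 turned to 0.15, 0.84 and 0.90. With either rescaling of the libraries 2 Hoxb genes, Hoxb9 and Hoxb13, were higher in the tail and 4 lower. Over all genes the rescalings moved the split from 994 higher and 4083 lower to 1469 and 3388 by the median ratio, and to 1579 and 3195 by equal totals. The tail library also stood apart in its markers, with a summed FPKM of 7 melanocyte markers of 1817.5 against 136 to 302 in the other dermal libraries. The part of these cells in the Hoxb values was not tested.

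The comparison of layers asks whether epidermis and dermis of one site share a Hoxb pattern. On the back, no Hoxb gene was higher in dermis and 3 of 9 were lower (Hoxb6, Hoxb7 and Hoxb8), where 8.29% of all genes tested were lower. The dermal to epidermal ratio was lowest for Hoxb7, at 0.291 (0.247 to 0.340), followed by Hoxb6 at 0.313 (0.268 to 0.364) and Hoxb8 at 0.363 (0.325 to 0.406). It was 0.413 to 0.546 for Hoxb2, Hoxb3, Hoxb4, Hoxb5 and Hoxb9. Hoxb1 alone was at a higher level in dermis, with a ratio of 1.39 (1.01 to 1.93). With all libraries set to the same total FPKM, Hoxb8 fell short of the size rule at -0.80.

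Beside the keratinocyte markers, the dermal values of Hoxb2 to Hoxb9 on the back ran from 29.1% to 54.6% of the epidermal ones, with a median of 45.7%. All 8 lay within the range of the 8 basal markers, and 4 of 8 within the range of the 7 markers other than Dst. The Hoxc genes at 1 FPKM or more in dorsal epidermis had a median of 82.8% (5 genes) and the Hoxd genes 139% (2 genes), whereas the Hoxa genes, with 43.9% (8 genes), were close to Hoxb. The epidermal libraries, in turn, held few fibroblast transcripts.

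**Figure D3:**
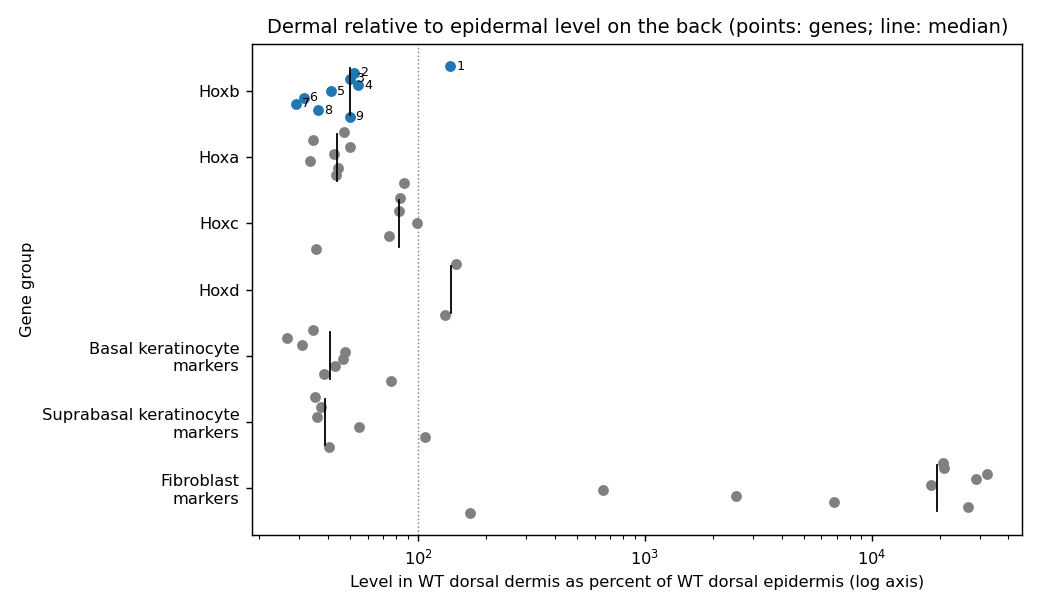
Level in WT dorsal dermis as a percent of that in WT dorsal epidermis (log axis) for single genes (points) of each gene group, with the median as a black line and 100% dotted. Numbers beside blue points name the Hoxb gene. Hoxb2 to Hoxb9 run from 29.1% to 54.6%, and the basal keratinocyte markers from 26.5% to 75.8%, or to 47.6% without Dst. Hoxb2, Hoxb3, Hoxb4 and Hoxb9 lie above the basal markers other than Dst. Hoxb1 lies above 100%, and fibroblast markers lie far to the right.

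In the WT ear, Hoxb2 and Hoxb3 were the 2 genes that could be counted, and both were lower in dermis, where 14.4% of all genes tested were lower. The dermal to epidermal ratio was 0.166 for Hoxb2 (0.116 to 0.233) and 0.177 for Hoxb3 (0.129 to 0.242). The opposite held for Hoxb4, with a ratio of 3.13 (1.53 to 6.91) on 31 and 11 estimated fragments, and for Hoxb1, with 4.60 (1.98 to 12.5) on 29 and 7. In the Koa ear, neither Hoxb2 nor Hoxb3 passed the size rule, where 12.8% of all genes tested were lower in dermis. Their ratios were 0.421 (0.292 to 0.612) and 0.391 (0.267 to 0.564), and that of Hoxb4 was 4.98 (2.04 to 14.7). Hoxb4 was thus at a higher level in dermis than in epidermis in both ear pairs and at a lower one on the back.

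The comparison of Koa with WT ear asks how Hox expression in the hairier mutant ear differs from that in the normal one. In ear dermis no Hoxb gene reached 1 FPKM in either library, and 2.78% of all genes tested differed in either direction. The Koa to WT ratio was 1.13 for Hoxb2 (0.718 to 1.78), 0.881 for Hoxb3 (0.568 to 1.35), 0.990 for Hoxb4 (0.580 to 1.69) and 0.635 for Hoxb1 (0.333 to 1.19). Each of these intervals holds 1, and each spans both lower and higher levels in Koa. For comparison, 4 of 5 Hoxc genes that could be counted were higher in Koa ear dermis, led by Hoxc8 at 10.2 FPKM against 0.241. Koa ear dermis stayed far below WT dorsal dermis in Hoxb genes: its level was 0.0763 of the dorsal one for Hoxb2 (0.0552 to 0.105), 0.0546 for Hoxb4 (0.0367 to 0.0794) and 0.0103 for Hoxb8 (0.00336 to 0.0245).

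In ear epidermis, Hoxb2 and Hoxb3 were both lower in Koa but neither passed the size rule, where 3% of all genes tested differed in either direction. Hoxb2 was at 2.06 FPKM in Koa and 4.65 in WT, a ratio of 0.443 (0.348 to 0.556) on 103 and 267 estimated fragments. Hoxb3 was at 1.02 and 2.54 FPKM, a ratio of 0.400 (0.318 to 0.500) on 107 and 306. Of 12065 genes tested, 140 (1.16%) had a difference at least as low as that of Hoxb2 (-0.89), and 174 (1.44%) as that of Hoxb3 (-0.81). With a pseudocount of 0.1 in place of 1, both passed the size rule. The 13 growing hair follicle markers had a summed FPKM of 221 in Koa ear epidermis and 39.6 in WT, and 9 of the 13 were higher in Koa. Their part in the lower Hoxb2 and Hoxb3 values was not tested.

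**Figure D4:**
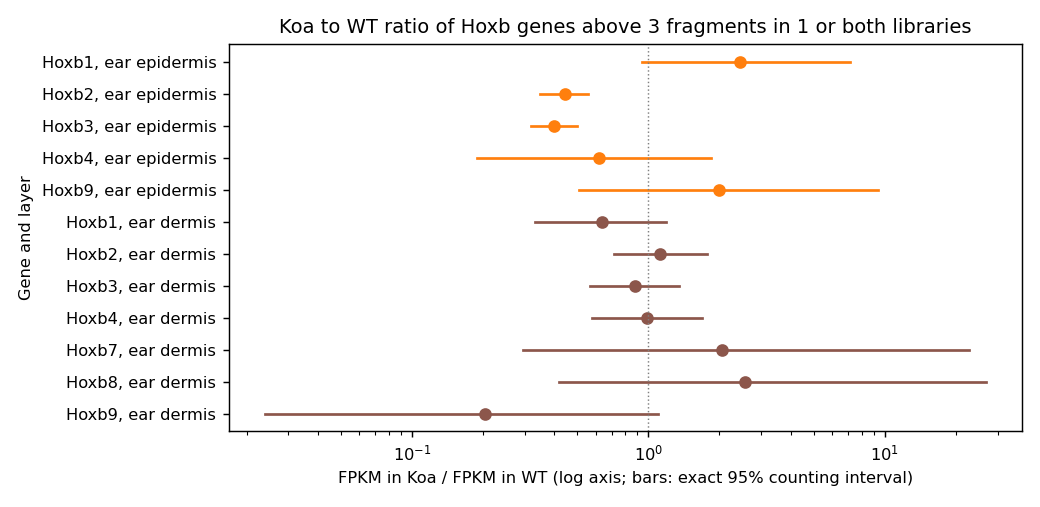
Ratio of FPKM in Koa to FPKM in WT (log axis, 1 dotted) for Hoxb genes with more than 3 estimated fragments in 1 or both ear libraries of a layer, with bars for the exact 95% counting interval. Hoxb2 (0.443) and Hoxb3 (0.400) in ear epidermis are the points whose bars stay clear of 1.

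Among the 39 Hox genes in the table, the Hoxb share of the summed FPKM was 37.3% in WT dorsal epidermis, 26.8% in WT dorsal dermis, 30.7% in WT tail dermis and 26.9% in WT ear epidermis. It was 7.46% in WT ear dermis, 12.4% in Koa ear epidermis and 4.80% in Koa ear dermis. The low share in ear dermis stood beside Hoxa2, a gene of ear development, which alone was at 19.3 FPKM in WT and 18.7 in Koa. In Koa ear epidermis the Hoxc sum was 14.1 FPKM against 7.84 in WT, and the Hoxb sum 3.50 against 7.51. Most of the Hoxc sum was Hoxc13, also a growing hair follicle marker here, at 10.3 FPKM in Koa and 6.52 in WT. Of 2 Hoxc genes that could be counted, 1 was higher in Koa (Hoxc8), where 3% of all genes differed in either direction.

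**Figure D5:**
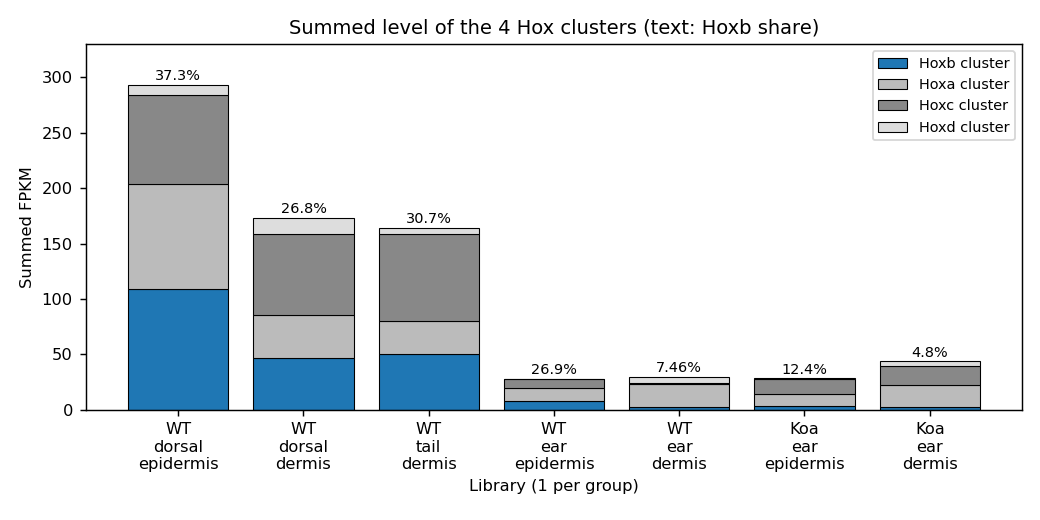
Summed FPKM of the genes of each Hox cluster (stacked bars) in each of the 7 libraries, with the Hoxb share printed above each bar. The Hoxb part is largest in WT dorsal epidermis (109 FPKM) and smallest in the 2 ear dermal libraries (2.23 and 2.11).

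Paralogs, the genes at the same place in the other clusters, shared some of these patterns. Hoxa5, Hoxa7 and Hoxc8 were, like the middle Hoxb genes, high on the back and low in the tail. In dermis they were at 15.0, 10.1 and 29.5 FPKM on the back and at 1.15, 1.44 and 1.32 in the tail. In WT dorsal epidermis they were at 44.9, 23.3 and 39.8 FPKM. At the 5′ end, Hoxa13 was at 3.79 FPKM in the tail and at 0 elsewhere, as Hoxb13 was, and Hoxd13 was listed at 0 in every library. Hoxc13, which is needed for hair, differed from Hoxb13: it was at 14.35 FPKM in the tail, 11.2 in WT dorsal epidermis and 6.52 in WT ear epidermis.

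The non-coding RNAs of the cluster were read beside their coding neighbours. Gm53, between Hoxb13 and Hoxb9, was at 8.10 FPKM in WT dorsal epidermis, 3.44 in WT dorsal dermis, 13.1 in WT tail dermis and 0.0599 in WT ear epidermis, and at 0 in the other ear libraries. Its highest level was in the tail, as for its neighbours Hoxb9 and Hoxb13. Mir196a-1, the gene of the microRNA shown above, was at 259, 127 and 526 FPKM in the first 3 of these libraries and at 0 in all ear libraries. These values count fragments over a short hairpin gene in a long-RNA library, so they are unstable and do not measure the mature microRNA. Hoxb8, which holds the paired stretch, was at 15.4 FPKM in WT dorsal epidermis, 5.58 in WT dorsal dermis and 1.01 in WT tail dermis. In the ear, where Mir196a-1 was at 0, Hoxb8 was at 0.0576 or less. Hoxb7, whose best stretch pairs at 14 letters, was at 0.98 FPKM in the tail. A link between the levels of Mir196a-1 and Hoxb8 was not tested. Mir10a was listed at 0 in every library.

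Outside the cluster, 26 neighbouring genes on either side were taken as a check on the region. Of 20 that could be counted between dorsal and ear dermis, 2 were higher on the back (Skap1 and Abi3) and none was lower, with a median difference of 0.13, where 11.7% of all genes were higher. In epidermis 1 of 18 was higher (Gngt2) and none was lower, where 11.5% of all genes were higher. Between Koa and WT none of 18 differed in ear dermis, where 2.78% of all genes did. In ear epidermis 1 of 16 was higher in Koa (Sp6), where 3% of all genes differed in either direction. The back to ear counts are near or below the shares over all genes, and the Koa count in epidermis rests on 1 gene.

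Genes whose products act with Hox proteins or on Hox loci were counted in the same way. Between dorsal and ear dermis, 11.7% of the 14235 genes tested were higher on the back and 1005 of the 14235 were lower. Of the Pbx, Meis and Pknox genes, whose proteins bind DNA together with Hox proteins, 8 could be counted between dorsal and ear dermis, and none was higher on the back. Meis2 (3.40 FPKM on the back, 20.6 in the ear) and Meis1 (10.2 and 24.5) were lower there, opposite in direction to Hoxb2 to Hoxb9. None of 8 differed between dorsal and ear epidermis, where 11.5% of all genes were higher on the back. Of 18 genes of retinoic acid signalling, a known inducer of 3′ Hoxb genes, 17 could be counted in dermis: 2 were higher on the back and 5 lower. The higher ones were Crabp2 (28.0 FPKM on the back, 4.03 in the ear) and Dhrs3 (47.9 and 16.3). The lower ones included Cyp26a1 (0.529 and 28.0 FPKM) and Cyp26b1 (11.5 and 120), which break retinoic acid down. The rest of the lower ones were genes of its synthesis: Aldh1a1 (38.1 and 140 FPKM), Aldh1a2 (0.330 and 1.93) and Rdh10 (4.93 and 16.0). Genes of both breakdown and synthesis were thus lower on the back, and the level of retinoic acid was not measured. Of 24 Polycomb and trithorax genes, which keep Hox loci silent or active, 1 was higher on the back in dermis and 2 were lower. The lower ones included Phc1 (5.28 and 18.8 FPKM). None of the 24 differed between Koa and WT in either ear layer, where 2.78% of all genes in dermis and 3% in epidermis did. Egr2, an activator of Hoxb2 in the hindbrain that also responds to cell stress, was at 47.4 FPKM in dorsal and 5.45 in ear dermis, and at 159 and 37.7 in the epidermis of the 2 sites.

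The genes whose pattern over the 7 libraries was most like the mean log2(FPKM + 1) of the 10 Hoxb genes were found by Pearson's r on that scale, among 11572 genes at 5 FPKM or more in 1 library. They were 8430408G22Rik (r = 0.993), Trib1, Gadd45a, Btg2, Zc3h12a, Midn, Dusp8 and Slc25a25 (r = 0.988). The 7 points share the division into dorsal or tail and ear libraries. Several of these are genes that respond early to stress or growth signals, and of the stress list Atf3 had an r of 0.977 and Jun of 0.969. Of the other Hox genes, Hoxa6 came closest, with 0.957, followed by Hoxa7 with 0.942. Without the tail library 2 of the 8 stayed among the first 8, and Maff, Gm53, Fosl1, Hoxa7, Csrnp1 and Hoxa5 entered. With a pseudocount of 0.1, 4 stayed.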

How the data were processed

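Total RNA of sorted skin cells was sequenced in 7 libraries, 1 per group. The authors deposited 1 table of FPKM values per gene symbol. TopHat2 2.0.13 and Cufflinks 2.2.1 are named in the submitters' processing notes, which list the builds GRCm38 and mm9 without saying which was used for which step. How the tail column was made to differ in decimals is not given in the sources used here.

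FPKM were used as deposited. With 1 library per group no test was run; a gene counted as different at 1 or more on the log2(FPKM + 1) scale, among genes at 1 FPKM or more in 1 of the 2 libraries, and the same rule over all genes gave the background. Depth was estimated from the whole-fragment steps of low values, with GENCODE M21 transcript lengths less 210 bases; 18 of 23 low Hoxb values came within 0.1 of a whole fragment. Ratios carry exact (Clopper-Pearson) 95% intervals on the estimated fragments, which cover counting error only, and a library at 0 was set at 3 fragments. The depth fit and the size rule were tested on simulated data.

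All Hoxb genes are named; of other lists, at most 3 members with the widest differences; and the 8 genes most like the mean log2(FPKM + 1) of the Hoxb genes. Exceptions to this, chosen after their values were seen, are the paralogs set beside Hoxb genes, Hoxa2, Egr2, Atf3, Jun, Aldh1a1, Aldh1a2, Rdh10 and Dhrs3. The members and the gene lists were chosen with earlier results of these data known. Alternatives were other pseudocounts (0.1 and 5), filters (none and 5 FPKM), scalings and subtraction of the keratinocyte share. Python 3.11.15, numpy 2.4.6, pandas 2.3.3 and scipy 1.17.1 were used. Not every call among the other gene lists is reported here.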

Additional observations from a re-analysis of the deposited data

How the results depend on the processing

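Counts of Hoxb genes past the size rule are given as main value and then alternative. With a pseudocount of 5, dorsal against ear dermis went from 8 to 5, tail against ear dermis from 6 to 3, tail against dorsal dermis from 5 to 1, and WT ear dermis against epidermis from 2 to 0. With a pseudocount of 0.1, tail against dorsal dermis went from 5 to 8, and the Koa to WT ear epidermis and Koa ear dermis to epidermis counts went from 0 to 2. With a filter at 5 FPKM, dorsal against ear dermis gave 5, tail against ear dermis 3 and WT ear dermis against epidermis 0. With the keratinocyte share subtracted, dorsal against ear dermis gave 1 and dorsal dermis against epidermis 8 (main value 3). Without Dst, an alternative chosen after seeing the data, these were 2 and 8. Between dermis and epidermis, subtraction lowers the dermal values alone, so it can move genes only towards lower in dermis. Over all genes, dorsal against ear dermis went from 1670 higher and 1005 lower to 623 and 4864 with the share subtracted. The other 54 settings stayed within 1.5 times in total, both scalings and the missing filter among them. Of these, tail against dorsal dermis with the share subtracted, with or without Dst, went from 1 higher and 4 lower to 5 higher and 1 lower, with 2 genes shared. There a larger share was taken off dorsal dermis than off the tail. Of the single-gene differences, 12 reversed, all after subtraction. In dorsal against ear dermis Hoxb6, Hoxb7 and Hoxb8 went to -0.03, -0.07 and -0.0321 (without Dst -0.0305, -0.0702 and -0.0321). In tail against dorsal dermis Hoxb4, Hoxb7 and Hoxb8 went to 0.1497, 0.838 and 0.896 (without Dst 0.033, 0.8917 and 0.9362). The share subtracted is a fraction of the epidermal level, so genes whose dermal level lies at or below that fraction are left at 0 by construction. Subtraction, also chosen after seeing the data for this measure, moved the Hoxb share of Hox FPKM to 10.7% in WT dorsal dermis, 5.81% in WT ear dermis and 4.17% in Koa ear dermis. No paired analysis was possible because each group has 1 library. One library per group allows no estimate of the spread between animals, and the tail column, with no recoverable depth, allows no counting interval.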
